A study of Mus musculus with 4 samples.

Results

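Lipoprotein lipase, encoded by Lpl, and the proteins that mature, anchor or inhibit it were followed at the RNA level in differentiated mouse brown adipocytes with and without knockdown of the long noncoding RNA Blnc1. There were 8 genes on the list: Lpl, its maturation factor Lmf1, its capillary anchor Gpihbp1, and the angiopoietin-like genes Angptl1, Angptl2, Angptl4, Angptl6 and Angptl8. They were chosen by gene symbol, with the fold changes of this same comparison already known, so the values of the members are given as a description without p-values. The platform annotation names 7 of the 8, with 10 probe sets in all, among 17097 genes. Angptl2 is not named there and was not analysed here. Knockdown cells expressed a short hairpin RNA (shRNA) against Blnc1, and scramble cells expressed a scrambled shRNA. Both were cultured brown adipocytes differentiated for 6 days, so the cells compared share that treatment and differ in the hairpin. Each group had 2 arrays, described as biological replicates, and having so few limits how precise each value is. No label says whether the replicates came from separately made cultures, so p-values measure the spread between these arrays, which may be in part technical. The level of Blnc1 itself was not analysed here, since no probe set carries its name in the annotation used.

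Lipoprotein lipase releases fatty acids from the triglyceride of chylomicrons and very low density lipoproteins at the capillary wall, and brown fat is one of its most active sites in the mouse. The enzyme is folded in the endoplasmic reticulum of the fat cell with the help of LMF1, secreted, and carried to the capillary lumen by GPIHBP1. ANGPTL4, made by fat cells most strongly during fasting, unfolds and inactivates the enzyme, while ANGPTL8, made after feeding, acts in complexes with other ANGPTL proteins and so shifts the enzyme's activity between tissues.

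Values are log2 expression values per probe set, as deposited, and a log2 fold change is the knockdown mean minus the scramble mean. A gene is represented by its brightest probe set. A value of 2.55, the highest of any control probe set without a genomic target and with 3 to 24 G or C bases, is taken as the background. A gene is called where its adjusted p in limma, fitted across all probe sets and adjusted by Benjamini-Hochberg over all genes, is at most 0.05. The arrays were alike within groups, with correlations across probe sets of 0.996 between the knockdown arrays and 0.994 between the scramble arrays, against 0.982 to 0.984 between groups. The Actb control probe set at the 3′ end exceeded the one at the 5′ end by 1.77 and 1.88 log2 units on the knockdown arrays, against 0.99 and 1.15 on the scramble arrays, so this measure of RNA integrity moved with the groups. The same difference for Gapdh was 0.34 and 0.40 on the knockdown arrays, against 0.09 and 0.04 on the scramble arrays, and the 18S ribosomal RNA control read 6.64 and 7.01 on the knockdown arrays, against 5.13 and 4.43 on the scramble arrays. The part of these measures in the differences given here was not tested. The adipocyte identity of the cultures was visible in both groups: the 4 named adipocyte markers had a mean log2 value of 10.27 and 10.25 on the knockdown arrays, against 10.34 and 10.38 on the scramble arrays, and limma called 0 of the 4. Among these 4, Lipe alone had an unadjusted p under 0.05 (0.0125, limma), at 7.56 and 7.56 on the knockdown arrays, against 7.88 and 7.88 on the scramble arrays, and 1 or 2 of the 4 were called lower with quantile normalization, without the dimmest genes and with a trend. Adipoq and Fabp4, at 11.75 or more on each array, lay near the upper end of the scale like Lpl. A probe set of Fabp4 lower on that scale, described after its values were seen, read 8.22 and 8.01 on the knockdown arrays, against 8.82 and 8.80 on the scramble arrays, and was called lower among probe sets (1.62-fold, limma adjusted p = 0.00977).

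The 2 members with the largest differences lay on opposite sides. Angptl8 was 4.29-fold higher and Angptl4 was 3.81-fold lower on the knockdown arrays, while Lpl itself, at the top of the array's scale, differed by 1.05-fold. Of the 7 members, 3 were called, 2 of them higher (Angptl8 and Angptl1) and 1 lower (Angptl4), and 4 were not called (Lpl, Lmf1, Gpihbp1 and Angptl6). Over all genes 18.5% were called, 11.4% higher and 7.18% lower. The median log2 fold change of the 7 members was 0.06, against -0.04 over all genes. In 6 of the 7 the values of the groups did not overlap, which was also the case for 62.6% of all genes. Since the members were chosen with this comparison known, nothing is read from these counts.

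**Figure D1:**
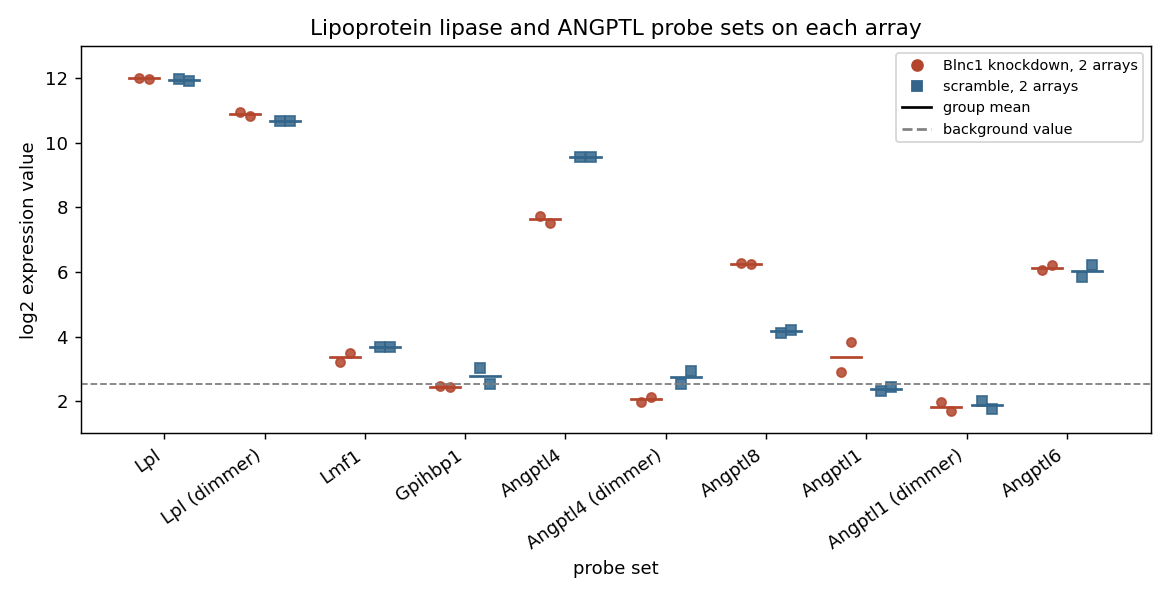
Log2 expression value (vertical axis) of the 10 member probe sets on each array, with Blnc1 knockdown arrays as circles and scramble arrays as squares, group means as short lines and the background value of 2.55 as a dashed line. Angptl8 lies higher and Angptl4 lower on both knockdown arrays, Lpl lies near the top in both groups, and Gpihbp1 lies at the background on the knockdown arrays.

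The promoter of Angptl8, the member with the largest difference, is shown with that of Angptl6, a family member on the same chromosome whose groups overlapped. Both are the 250 bases before the annotated start in RefSeq (build GRCm38.p6), printed 5′ to 3′ on the gene's own strand, and the table used holds 5 of the 8 members (Angptl1, Angptl2, Angptl6, Angptl8 and Lmf1). Angptl8 is read from chr9:21835260-21835509 on the plus strand and Angptl6 from chr9:20879711-20879960 on the minus strand.
Angptl8: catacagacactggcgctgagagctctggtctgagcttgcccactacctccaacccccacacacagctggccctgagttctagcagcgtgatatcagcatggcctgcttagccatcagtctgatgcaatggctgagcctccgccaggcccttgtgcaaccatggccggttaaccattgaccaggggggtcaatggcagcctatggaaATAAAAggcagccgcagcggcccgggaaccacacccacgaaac
Angptl6: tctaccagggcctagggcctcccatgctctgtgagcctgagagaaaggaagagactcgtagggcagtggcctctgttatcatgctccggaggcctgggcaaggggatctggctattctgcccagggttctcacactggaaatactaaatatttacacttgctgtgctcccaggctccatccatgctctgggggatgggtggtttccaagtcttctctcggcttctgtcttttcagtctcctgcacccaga
The capitals mark ATAAAA, which begins at -43 from the start of Angptl8. This run was added to the search after the sequence had been seen. It occurs on either strand in 17.0% of 32851 promoter windows of this length. Other motifs were searched on both strands as well. The canonical TATA box, spelled TATAAA, occurs in 12.4% of the windows, and the CCAAT box, spelled as its name, in 33.8%. The E-box spelled CACGTG occurs in 6.02%, and the GC box spelled GGGCGG in 32.7%. The nuclear receptor half-site, spelled AGGTCA, occurs in 14.0%, and the sterol response motif, spelled TCACNCCAC, in 1.05%. None of these occurs in the Angptl8 or Angptl6 window, which says only that those letters are not there.

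Lpl encodes the enzyme itself (Entrez Gene 16956). Its brightest probe set read 12.01 and 11.99 on the knockdown arrays, against 11.97 and 11.90 on the scramble arrays. The knockdown arrays were higher on both, by a gap of 0.02, less than the standard error of the difference. The log2 fold change was 0.06 ± 0.10 (SE, n = 2 each), and the highest value of any probe set on any array was 12.36, so this probe set lies near the upper end of the scale, where differences can be compressed. A second, dimmer probe set, of a type that detects alternative transcripts of 1 gene, read 10.94 and 10.83 on the knockdown arrays, against 10.67 and 10.68 on the scramble arrays. It also lay higher on both knockdown arrays, with a log2 fold change of 0.20 ± 0.10, and was not called when all probe sets were tested on their own (14.1% of 45037 were). With 1 array left out at a time, the log2 fold change stayed between 0.03 and 0.10 for the brighter probe set and between 0.15 and 0.26 for the dimmer one.

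Lmf1, the membrane protein of the endoplasmic reticulum that lipases need to fold (Entrez Gene 76483), read 3.20 and 3.51 on the knockdown arrays, against 3.67 and 3.67 on the scramble arrays. Both knockdown arrays were lower, and the difference of -0.31 ± 0.13 (log2, SE, n = 2 each) was not called. It was -0.16 without knockdown replicate 1 and -0.47 without knockdown replicate 2, so its size rests on which knockdown array is used.

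Gpihbp1, the anchor that binds the enzyme and moves it across capillary endothelial cells (Entrez Gene 68453), read 2.46 and 2.42 on the knockdown arrays, against 3.02 and 2.54 on the scramble arrays. Both knockdown arrays and scramble replicate 2 were at the background. The scramble mean of 2.78 was thus at least 1.18-fold above the knockdown level, and the gene was not called. Without scramble replicate 2 the log2 fold change was -0.58, and the gene was then called, while without scramble replicate 1 it was -0.10. Markers of capillary endothelial cells were low in the same arrays: of 12 named markers, 4 (Cdh5, Tie1, Emcn and Vwf) had both group means at the background, and the list averaged 3.11 and 3.07 on the knockdown arrays, against 3.10 and 3.02 on the scramble arrays. Of these markers 2 were higher (Tek and Eng) and 0 were lower. With averaged probe sets 1 was higher and 1 lower, and with quantile normalization 1 was higher and 0 lower. In bulk RNA, fewer cells of a type cannot be told apart from less RNA per cell.

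Angptl4 encodes the fasting-induced inhibitor of the enzyme and is a known target gene of PPAR nuclear receptors (Entrez Gene 57875). It read 7.75 and 7.51 on the knockdown arrays, against 9.56 and 9.55 on the scramble arrays. The groups stood 1.81 log2 units apart at their nearest arrays. The means were 7.63 ± 0.17 in knockdown and 9.56 ± 0.002 in scramble (SD, n = 2 each), a log2 fold change of -1.93 ± 0.12 (SE). Only 11 of the 17097 genes had a lower one, since Angptl4 ranked 12 from the lowest. By its suffix, this probe set may also match other transcripts. The dimmer probe set of Angptl4 read 1.98 and 2.14 on the knockdown arrays, both at the background, against 2.54 and 2.93 on the scramble arrays, of which replicate 1 was at the background. It went the same way, with the scramble mean at least 1.14-fold above the knockdown level, and was called on its own among probe sets. That call was lost without either knockdown replicate and without scramble replicate 2, with log2 fold changes of -0.60, -0.75 and -0.48 in place of -0.68. With 1 array left out at a time, the brighter probe set gave -2.05 to -1.81.

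Angptl8 encodes the feeding-induced member of the family (Entrez Gene 624219) and has 1 probe set. It read 6.28 and 6.24 on the knockdown arrays, against 4.11 and 4.21 on the scramble arrays. All 4 values were above the background, and the nearest arrays of the groups were 2.03 log2 units apart. The means were 6.26 ± 0.02 in knockdown and 4.16 ± 0.07 in scramble (SD, n = 2 each), with a log2 fold change of 2.10 ± 0.10 (SE). Angptl8 ranked 23 from the highest of the 17097 genes. The log2 fold change was 1.98 after quantile normalization, 2.16 after median centring of the arrays, and 2.05 to 2.15 with 1 array left out.

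Angptl1, a secreted angiopoietin-like protein of blood vessels and stroma (Entrez Gene 72713), read 2.89 and 3.84 on the knockdown arrays, against 2.30 and 2.44 on the scramble arrays. Both scramble arrays were at the background, both knockdown arrays were above it, and knockdown replicate 2 was well above knockdown replicate 1. The knockdown mean of 3.37 was at least 1.77-fold above the scramble level, with a standard error of 0.27 log2 units. The call was lost without knockdown replicate 2 (log2 fold change 0.52), without scramble replicate 1 (0.93) and without scramble replicate 2 (1.06), each against 1.00 with all arrays. The dimmer probe set of Angptl1 was at the background in both groups, with 1.97 and 1.68 on the knockdown arrays, against 1.99 and 1.77 on the scramble arrays.

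Angptl6, a family member best known as a liver-derived factor (Entrez Gene 70726), read 6.05 and 6.21 on the knockdown arrays, against 5.85 and 6.23 on the scramble arrays. The knockdown values lay between the scramble values, so the groups overlapped. The log2 fold change was 0.09 ± 0.15 (SE, n = 2 each), and its sign turned after quantile normalization (-0.07) and without scramble replicate 1 (-0.10).

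**Figure D2:**
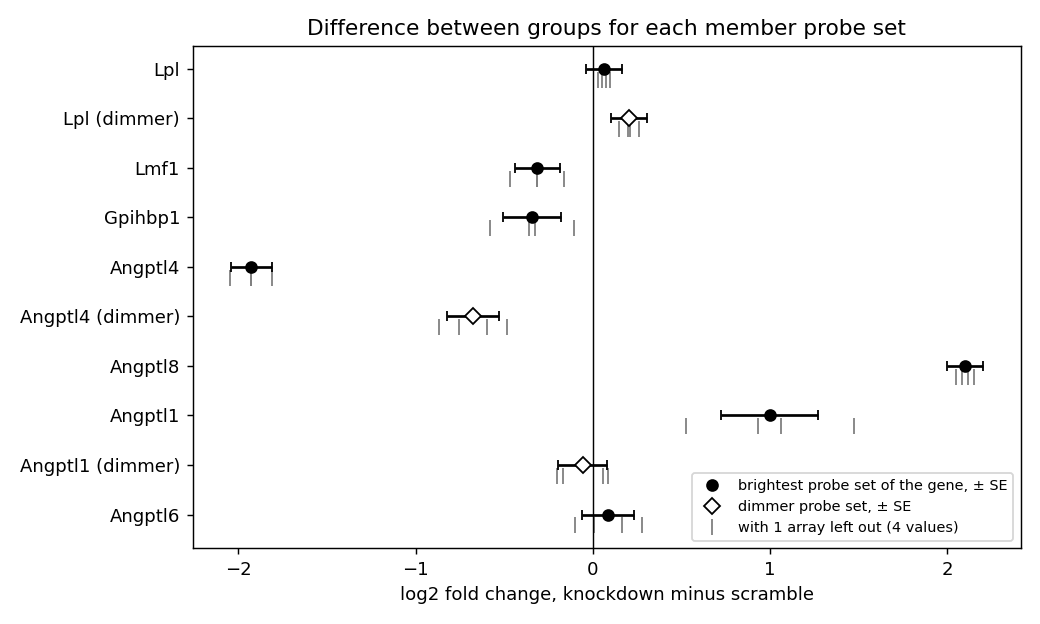
Log2 fold change (horizontal axis, knockdown minus scramble) of each member probe set with its standard error, filled circles for the brightest probe set of a gene, open diamonds for dimmer ones, and grey ticks for the 4 values with 1 array left out. Angptl4 at -1.93 and Angptl8 at 2.10 lie farthest out, with ticks close to the point, and the ticks of Angptl1 spread from 0.52 to 1.47.

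Markers of other cell types also moved with the groups, and their part in the values of Angptl1, Angptl4 and Angptl8 was not tested. Of 9 named hepatocyte markers, 7 were lower and 0 higher, and the list averaged 3.04 and 2.51 on the knockdown arrays, against 4.15 and 4.04 on the scramble arrays. Of 7 named preadipocyte and fibroblast markers, 6 were higher and 0 lower, with averages of 4.91 and 5.04 on the knockdown arrays, against 4.08 and 4.20 on the scramble arrays. Without knockdown replicate 1 or replicate 2, or without scramble replicate 1, 4 of these 7 were called. Of 6 brown adipocyte markers, 5 were lower and 1 (Elovl3) was higher, with averages of 6.32 and 6.40 on the knockdown arrays, against 7.24 and 7.23 on the scramble arrays. Macrophages, which also make lipoprotein lipase, were represented by 8 named markers, of which 4 were at the background in both groups and 1 (Adgre1) was higher, with averages of 2.61 and 2.69 on the knockdown arrays, against 2.61 and 2.57 on the scramble arrays. Of 8 skeletal muscle markers, 1 (Myod1) was lower, with its knockdown mean at the background. The averages of this list were 2.72 and 2.73 on the knockdown arrays, against 2.80 and 2.76 on the scramble arrays.

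**Figure D3:**
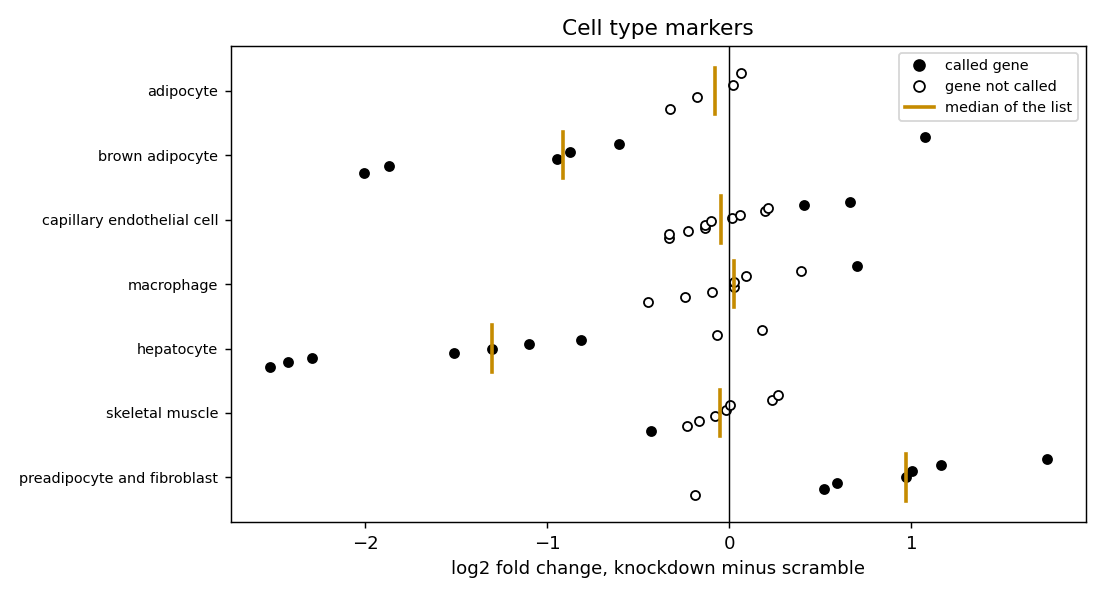
Log2 fold change (horizontal axis, knockdown minus scramble) of the named markers of each cell type, filled where called and open where not, with the median of each list as a bar. Adipocyte markers centre near 0, 7 of 9 hepatocyte markers are called on the left, and 6 of 7 preadipocyte and fibroblast markers are called on the right.

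The other genes around the enzyme were taken from 9 lists. On them the annotation names 105 genes, of which 26 rose and 10 fell, while 69 did not pass. That is 34.3% called, against 18.5% of all genes, dim ones included. With the dimmest 40 percent of genes removed, 3311 of the 10259 genes left were called, and 41 listed genes. The lists were chosen with earlier results of these data known, so nothing is read from these shares. The median log2 fold change of the listed genes was 0.09, against -0.04 over all genes. The listed genes called numbered 16 without knockdown replicate 1 and 20 without knockdown replicate 2, while over all genes the calls numbered 1232 and 1050, against 3169 with all arrays. Lower genes numbered 2 and 4 then, and 6 without scramble replicate 1.

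Genes of heparan sulfate and of the proteoglycan proteins that carry it made up the largest group of calls, with genes of both kinds among them. Heparan sulfate is a sulfated sugar chain on cell surfaces, to which the secreted enzyme binds before GPIHBP1 takes it up. Limma called 13 of the 19 named genes higher and 0 lower, and the list's median difference was 0.65 log2 units. Under quantile normalization 11 were higher and 1 was lower, and with the dimmest 40 percent of genes removed 13 were higher and 1 was lower. Sulf1, which removes sulfate groups from the chain outside the cell, read 5.49 and 5.59 on the knockdown arrays, against 3.88 and 3.86 on the scramble arrays (3.18-fold, limma adjusted p = 0.000338). Its relative Sulf2 rose 2.46-fold (limma adjusted p = 0.00186), at a probe set that by its suffix may also match other transcripts. Hs6st2, which adds sulfate at the position those enzymes act on, rose 2.48-fold (limma adjusted p = 0.00166). Hs6st1, which adds the same sulfate and is named here after its value was seen, was not called (3.60 and 3.69 on the knockdown arrays, against 3.68 and 3.19 on the scramble arrays), and the 2 dimmer probe sets of Hs6st2 were not called either (log2 fold changes 0.14 and -0.15). Averaging each gene's probe sets gave 0.94 (log2) for Sulf1, 0.64 for Sulf2 and 0.43 for Hs6st2, against 1.67, 1.30 and 1.31 from the brightest probe set, and then 8 list members were higher and 1 was lower. Without knockdown replicate 1 or replicate 2, 9 members were higher. The 6 higher preadipocyte and fibroblast markers moved with this list, and their part in it was not tested.

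Among lipoprotein receptors and their partners, 4 of 11 named genes were higher and 1 was lower. Sorl1, a sorting receptor of the LDL receptor family, read 6.06 and 6.01 on the knockdown arrays, against 4.10 and 4.07 on the scramble arrays (3.86-fold, limma adjusted p = 0.000255). Averaged over its probe sets, Sorl1 differed by 1.28 log2 units, against 1.95 from the brightest. Lrpap1, the chaperone of that receptor family, was 1.48-fold higher (limma adjusted p = 0.0166), and without knockdown replicates 1 and 2 its limma adjusted p was 0.0581 and 0.122. Lrp1 and Cd36, receptors for lipoprotein remnants and for fatty acids, were the other higher genes, at 1.43-fold and 1.32-fold. Neither was called when a knockdown array was left out, Lrp1 was not called after quantile normalization, and Cd36 was not called without scramble replicate 1, with its probe sets averaged or in 1 other setting. Lsr, the lipolysis-stimulated lipoprotein receptor, was 1.43-fold lower (limma adjusted p = 0.042). It read 3.05 and 3.40 on the knockdown arrays, against 3.80 and 3.69 on the scramble arrays, near the background. It missed the threshold if knockdown replicate 1 was dropped (0.224), with either scramble replicate dropped (0.105 and 0.0583), and under median centring (0.0644). Without knockdown replicate 1 or replicate 2, 1 receptor gene was higher.

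Of 13 named genes for folding and export of the enzyme, 1 was higher and 0 were lower, and the list's median difference was 0.21 log2 units, against -0.04 over all genes. With a trended variance prior 5 were higher, and with averaged probe sets 4, in both cases with 0 lower. That gene was P4hb, a protein disulfide isomerase of the endoplasmic reticulum, which was 1.75-fold higher (limma adjusted p = 0.00351). Sel1l, an adaptor of endoplasmic reticulum quality control on which release of the enzyme depends in mouse fat, is named for its role outside the rule for named genes. It read 7.48 and 7.36 on the knockdown arrays, against 7.53 and 7.56 on the scramble arrays (limma adjusted p = 0.439). Limma called 0 of the 6 named proprotein convertases, proteases that cut the enzyme and ANGPTL proteins, although Furin and Pcsk6 had an unadjusted p under 0.05 (0.0216 and 0.0222). Furin, also named for its role, read 5.40 and 5.34 on the knockdown arrays, against 5.01 and 5.12 on the scramble arrays (limma adjusted p = 0.0864).

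Of 11 apolipoprotein genes, 0 were higher and 2 were lower. These were Apoa1, the main protein of high density lipoprotein (2.46-fold, limma adjusted p = 0.000717), and Apoh (1.80-fold, limma adjusted p = 0.0099). Both are made mainly in liver, and 7 of 9 hepatocyte markers, Apoa1 among them, were lower on the same arrays. Apoh read 2.78 and 3.14 on the knockdown arrays, against 3.71 and 3.91 on the scramble arrays. Its call was lost without knockdown replicate 1 (log2 fold change -0.67, against -0.85 with all arrays). With a trended variance prior 1 gene of this list was higher and 3 were lower. Under median centring, with a replicate block or with the dimmest genes removed, 1 was higher and 2 were lower. The enzyme's activator Apoc2 and its inhibitor Apoc3, named for their roles outside the rule, were not called. Apoc2 read 2.65 and 2.89 on the knockdown arrays, against 3.16 and 3.01 on the scramble arrays, and Apoc3 read 7.20 and 7.17 on the knockdown arrays, against 7.28 and 6.64 on the scramble arrays.

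Of 10 other lipase genes, 1 was higher and 1 was lower. Pla1a, a secreted phospholipase of the lipase family, read 4.95 and 4.84 on the knockdown arrays, against 3.26 and 3.74 on the scramble arrays (2.63-fold, limma adjusted p = 0.00254). Pnpla2, the lipase that starts triglyceride breakdown inside the fat cell, was 1.38-fold lower (limma adjusted p = 0.0255). It read 2.99 and 2.88 on the knockdown arrays, against 3.47 and 3.35 on the scramble arrays, near the background. Dropping either knockdown replicate (0.0927 and 0.168) or scramble replicate 1 (0.0688) ended the call.

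Among other ANGPTL and angiopoietin genes and their receptors, 3 of 11 named genes were higher and 1 was lower. The lower one was Angptl7, a family member known from the cornea and eye, which read 3.33 and 3.37 on the knockdown arrays, against 3.74 and 3.80 on the scramble arrays (1.33-fold, limma adjusted p = 0.0298). That call was lost on dropping either knockdown replicate (0.165 and 0.142) or scramble replicate 2 (0.0691), and under median centring (0.0509). Angpt2, a ligand of the receptor TEK in blood vessels, was 1.77-fold higher (limma adjusted p = 0.0132). Tek was 1.59-fold higher (limma adjusted p = 0.0106), at 3.80 and 3.68 on the knockdown arrays, against 3.18 and 2.97 on the scramble arrays. The integrin gene Itgb1 was 1.79-fold higher (limma adjusted p = 0.00256). Averaged over their probe sets, Angpt2 and Itgb1 differed by 0.43 and 0.44 log2 units, against 0.82 and 0.84 from the brightest, and were still called. Without knockdown replicate 1 the limma adjusted p of Angpt2 and Tek was 0.0787 and 0.0763, leaving 1 gene higher, and 0 were lower without knockdown replicate 1, knockdown replicate 2 or scramble replicate 2.

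Among transcription regulators known for Lpl or Angptl genes, 3 of 14 named genes were lower and 1 was higher. Ppara, a nuclear receptor for fatty acids and a regulator of Angptl4 in other tissues, read 4.41 and 4.28 on the knockdown arrays, against 6.22 and 6.18 on the scramble arrays (3.61-fold lower, limma adjusted p = 0.000328). Averaged over its probe sets, Ppara differed by -1.04 log2 units, against -1.85 from the brightest. The other PPAR genes on the list, Pparg and Ppard, are named here after their values were seen and were not called. Pparg read 9.35 and 9.26 on the knockdown arrays, against 9.43 and 9.53 on the scramble arrays. Ppard read 3.85 and 3.92 on the knockdown arrays, against 3.44 and 3.60 on the scramble arrays. The part of these receptors in the values of Angptl4 was not tested. Rxrb, a partner of such receptors, was 1.52-fold lower (limma adjusted p = 0.0149), with 0.091 and 0.0758 without knockdown replicates 1 and 2. Cebpa, a factor of fat cell differentiation, was 1.38-fold lower (limma adjusted p = 0.0368). The call ended when either knockdown replicate (0.0727 and 0.229) or scramble replicate 1 (0.0964) was dropped, and under median centring (0.0564). The higher gene was Hif1a, a regulator of the response to low oxygen, at 1.35-fold. Averaged over its probe sets it differed by 0.0015 log2 units and was not called, nor was it without either knockdown replicate or scramble replicate 2. Without knockdown replicate 1 or replicate 2, 1 regulator was lower and 0 were higher.

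Genes that take up and store the fatty acids released by the enzyme went both ways, with 3 of 10 named genes higher and 2 lower. Gpat3, which starts triglyceride assembly from glycerol phosphate, read 6.45 and 6.51 on the knockdown arrays, against 4.21 and 4.47 on the scramble arrays (4.41-fold, limma adjusted p = 0.000328). Dgat2, which completes triglyceride assembly, was 1.53-fold higher (limma adjusted p = 0.0074), with 0.0576 and 0.0569 without knockdown replicates 1 and 2. The fatty acid transport gene Slc27a1 was 1.51-fold lower (limma adjusted p = 0.0251). The call ended when either knockdown replicate (0.122 and 0.108) or scramble replicate 2 (0.0547) was dropped, and with its probe sets averaged (0.0706). The other called genes were Fabp5, a fatty acid binding protein, 1.33-fold higher, and Lpin1, a phosphatidate phosphatase, 1.37-fold lower. Both lost their call when any of 3 arrays (either knockdown replicate or scramble replicate 1) was left out. Without knockdown replicate 1 or replicate 2, 1 gene was higher and 0 were lower.

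**Figure D4:**
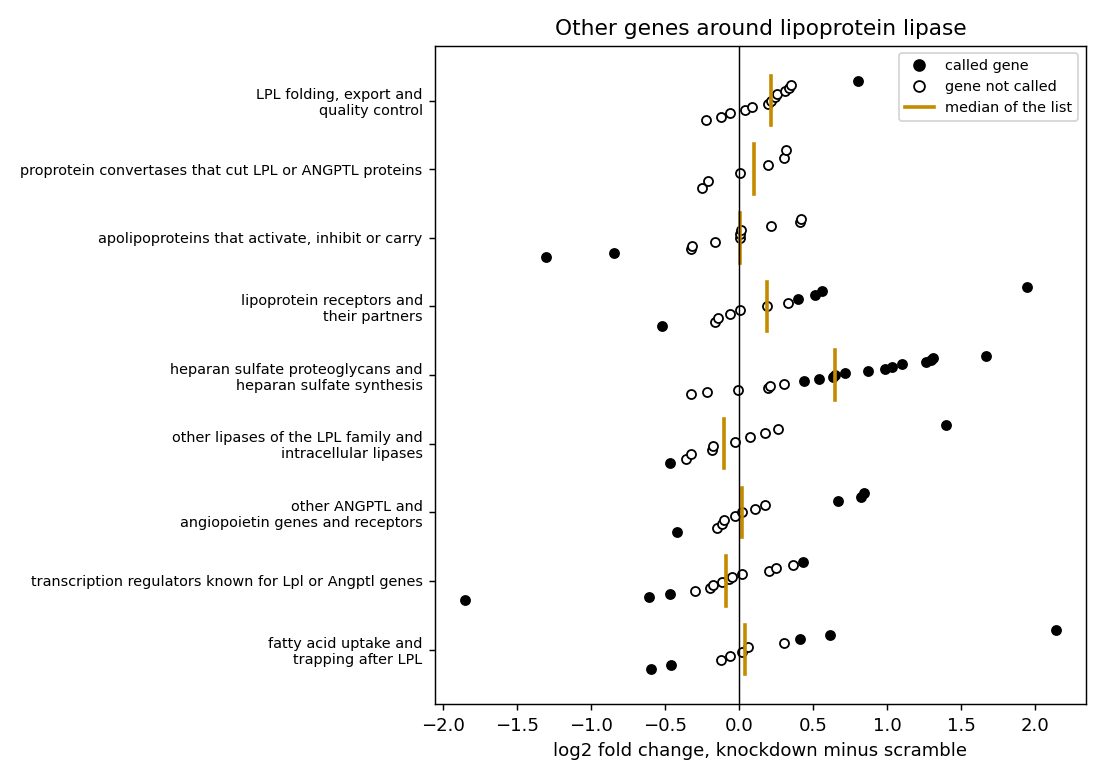
Log2 fold change (horizontal axis, knockdown minus scramble) of the named genes of the 9 lists around lipoprotein lipase, filled where called and open where not, with the median of each list as a bar. The heparan sulfate list has 13 of 19 genes called on the right, and Ppara at -1.85 is the lowest point.

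The genes whose values over the 4 arrays lay closest to those of Angptl8 and Lpl were found among 11911 genes above the background in both groups, by the root mean square difference of values centred on each gene's own mean. For Angptl8 these were Emp1 (0.033 log2 units), a membrane protein gene, Slit2 (0.062), a secreted guidance factor, and Gpat3 (0.068), and 5 genes lay within 0.1. Emp1 read 8.22 and 8.12 on the knockdown arrays, against 5.96 and 6.10 on the scramble arrays. For Lpl the closest were Aifm1 (0.003), Gm14169 (0.005) and Fam122b (0.006), and 3093 genes lay within 0.1. These counts follow from the size of the differences, since any gene with a small difference lies close to Lpl and only one with a difference near that of Angptl8 can lie close to it.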

How the data were processed

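RNA of 4 samples was measured on Affymetrix mouse arrays from 250 ng of total RNA each, per the labels' protocols. The authors deposited log2 values, 1 per probe set and array (1.05 to 12.36). The submitters' processing notes list affy, RMA and limma, with neither roles nor versions, and how the values were normalized is not stated in those notes.

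From these values, limma 3.58.1 in R 4.3.3 (two-sided) was fitted with group as the term to the 45037 probe sets that are not controls. The platform annotation gives 28898 of them exactly 1 symbol, 551 several and 15588 none. The fit had 2 residual degrees of freedom and a prior worth 4.93. The fit was tested on simulated data. Plots used matplotlib 3.10.9. From each pathway list the text names the 3 called genes with the largest difference, or all of them where 5 or fewer were called. Members, lists and tests were chosen with earlier results of these data known. Results were recomputed with quantile normalization, median centring, the dimmest 40 percent of genes removed, a trended or a robust eBayes, averaged or separate probe sets, a replicate block, and each array removed in turn. A lone array of a group was then taken to vary as the other group does.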

Additional observations from a re-analysis of the deposited data

How the results depend on the processing

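Limma called 3169 of the 17097 genes, 61.2% of them higher. This share was 49.2% under quantile normalization (1514 higher, 1564 lower) and 73.8% under median centring (2383 higher, 844 lower), where the median log2 fold change of all genes was -0.03 and 0.03, against -0.04 as deposited. Tested singly, 6356 probe sets were called. With 1 array removed, 1050 to 2841 genes were called, and 16 to 34 pathway genes (36 with all arrays), 14 to 27 of them higher (26) and 2 to 9 lower (10), and 2 or 3 members (3). Without scramble replicate 2 the members called included Gpihbp1 (log2 fold change -0.58) in place of Angptl1 (1.06). A replicate block gave 3179 genes, the same 3 members as with all arrays, and 36 pathway genes, 35 of them shared. Cd36 was lost (limma adjusted p = 0.0506) and Apoc4 was gained (0.0431). Replicates with equal numbers deviated together with r = 0.036 across probe sets. With 2 arrays in each group, this cannot show whether they were made or processed together, and the labels give only the number.

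Angptl4 and Angptl8 were called under each alternative run. The members were chosen with this comparison known and each run reuses the same arrays, so this shows only how the calls depend on the settings. Angptl1 was called in 7 alternatives, but not without knockdown replicate 2 or either scramble replicate, nor when probe sets were tested singly, and it is among the dimmest 40 percent. The sign of Angptl1 turned at its dimmer probe set (-0.056). Averaged probe sets gave -1.30 for Angptl4, 0.47 for Angptl1 and 0.13 for Lpl. Of 286 recomputed values of the 26 pathway genes named by rule, 46, from 16 genes, missed the threshold. The cause was not tested. None of the 286 turned direction, but most could not. The other eBayes variants, the replicate block and removal of dim genes leave a log2 fold change as it is. The groups did not overlap in any of these 26 genes, so leaving out an array cannot turn its sign. Dimmer probe sets on their own are not among these values, and a dimmer probe set of Hs6st2 went the other way. Signal near background limits Gpihbp1, Lmf1 and Angptl1, and the upper end of the scale limits Lpl. Among the named pathway genes, Pnpla2, Lsr, Apoh, Tek and Angptl7 also lay near the background, with both group means between 2.94 and 3.81.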

Other observations

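Several members, and the family gene Angptl7, lie inside or across another gene in the RefSeq annotation (GRCm38.p6, used for neighbours only). Angptl2 lies inside Ralgps1, and neither has a value here. The other neighbours had values of their own. Angptl8 lies inside Dock6, a guanine nucleotide exchange factor gene, which read 4.57 and 4.69 on the knockdown arrays, against 4.19 and 4.34 on the scramble arrays. The log2 fold change of Dock6 was 0.37, against 2.10 for Angptl8, and it was not called (limma adjusted p = 0.0615). Angptl1 lies inside Ralgps2, which read 3.44 and 3.17 on the knockdown arrays, against 3.77 and 3.12 on the scramble arrays, and was not called (limma adjusted p = 0.695). Angptl7 lies inside Mtor, the kinase gene of nutrient sensing, which read 7.33 and 7.26 on the knockdown arrays, against 7.33 and 7.30 on the scramble arrays (limma adjusted p = 0.924). For both Ralgps2 and Mtor the values of the groups overlapped.

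Angptl6 overlaps Shfl, an interferon-induced antiviral gene, at its edge. Shfl read 4.88 and 4.94 on the knockdown arrays, against 4.22 and 3.86 on the scramble arrays, and rose 1.83-fold (limma adjusted p = 0.00747), while the groups of Angptl6 overlapped. Whether a probe set binds transcripts of both overlapping genes was not tested.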
